A study of Mus musculus with 24 samples.

Results

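Fatty acid beta-oxidation and ketone genes were examined in the kidney of mice after myocardial infarction (MI). The members are 37 genes of the pathway, chosen by name and found by their identifiers among the 56941 genes of the deposited count table. Male wildtype C57BL/6J mice, aged 8 to 11 weeks, had the left anterior descending artery of the heart tied off for good or had sham surgery, and whole kidneys were taken at 5d post-MI or 28d post-MI. Sham kidneys were taken at 5d after surgery only and served as controls for both times, so that time after surgery and MI cannot be told apart at 28d. Of the 24 labelled kidneys, 22 could be assigned to their counts, all 8 sham kidneys, 8 of the 9 labelled 5d and 6 of the 7 labelled 28d.

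Beta-oxidation shortens fatty acids stepwise to acetyl-CoA and is a main source of energy of the proximal tubule, which makes up much of the kidney cortex. Fatty acids are first activated to acyl-CoA, pass into mitochondria as carnitine esters, and are then cut in a repeating spiral of dehydrogenation, hydration, a further dehydrogenation and thiolysis. Electrons of the first step reach the respiratory chain through the electron transfer flavoprotein. Very long and branched chains are shortened in peroxisomes, and ketone bodies made from acetyl-CoA, mainly in the liver, serve as a fuel elsewhere. Many genes of the pathway are targets of the nuclear receptor PPAR alpha in liver, heart and kidney.

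RNA was measured by MACE, which sequences the 3′ ends of transcripts and uses molecular identifiers to remove PCR copies. A molecule therefore gives a single tag whatever its length, and levels are given as CPM, counts divided by the library size as scaled by TMM. The libraries held 2280618 to 3786275 counts (median 2889944), so that 3 counts correspond to 0.792 to 1.32 CPM by library total, before TMM scaling. Markers of the proximal tubule were abundant, with Slc34a1 at a mean of 4313 CPM in sham kidneys, but Slc5a2, the glucose transporter of its early segment, did not exceed 1.07 CPM in any kidney. Adrenal cortex genes stood apart in 3 kidneys, with summed levels of 1035 CPM in sham replicate 2, 777 CPM in sham replicate 6 and 104 CPM in 5d replicate 5, against 9.67 to 24.99 CPM in the others. In bulk kidney, fewer cells of a type and less RNA per cell cannot be told apart. Of the other cell type lists, 4 of 5 tested red blood cell genes were called higher at 5d against sham and lower at 28d against 5d, and 2 of 8 tested macrophage and leukocyte genes were called higher at 28d against 5d. Their part in the results was not tested.

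The sequences around the start sites of Hadha, Hadhb and Acads are shown because Hadha and Hadhb, which encode the subunits of a single enzyme, lie head to head and both had lower values at 28d post-MI, and because Acads was the only member called in any comparison by the test described below. Hadha (ENSMUSG00000025745) lies on the minus strand of chromosome 5 from 30118304 to 30155162, and Hadhb (ENSMUSG00000059447) lies on the plus strand from 30155248 to 30184593, by GENCODE M21 on GRCm38. The 85 bases between the annotated genes, chr5:30155163-30155247 on the plus strand, read from the RefSeq promoter of Hadhb (GRCm38.p6), are 69.4% G or C. Acads (ENSMUSG00000029545) lies on the minus strand of the same chromosome from 115110299 to 115119346, and its 250 upstream bases, chr5:115119347-115119596 on the minus strand, are 60.4% G or C. Capitals mark the GC box GGGCGG on either strand, of which there are 2 between Hadha and Hadhb and 1 upstream of Acads.
Between Hadha and Hadhb: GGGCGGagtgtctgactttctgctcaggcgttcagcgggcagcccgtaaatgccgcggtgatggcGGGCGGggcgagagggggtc
Upstream of Acads: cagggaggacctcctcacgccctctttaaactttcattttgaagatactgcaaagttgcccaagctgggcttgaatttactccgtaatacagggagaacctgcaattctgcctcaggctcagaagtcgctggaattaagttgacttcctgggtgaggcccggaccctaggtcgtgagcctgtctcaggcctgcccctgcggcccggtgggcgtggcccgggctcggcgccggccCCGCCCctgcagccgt

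RefSeq promoter windows of 300 bases, 250 before and 50 after the start, were found for 33 of the 37 members. These 33 genes had 37 promoters. A member counts as holding a motif if any of its promoters does, while the share of all promoters counts each singly. This difference can raise the share of the members. A GC box was present in 24 of these 33 genes (72.7%) and in 35.7% of all 32851 promoters of the table. The CCAAT box was present in 16 of 33 members (48.5%) and in 37.4% of all promoters. The half-site AGGTCA of nuclear receptors was present in 5 members, Acadm, Acadvl, Cpt1a, Echs1 and Scp2 (15.2%), and in 16.3% of all promoters, and a direct repeat of it spaced by 1 base (DR1) was found in 0 members and in 0.0396% of all promoters. Both strands were searched, each longer repeat also counts as a half-site, and a match of letters is a description only.

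Of the 37 members, 36 passed edgeR's filter on low counts. The exception was Acadvl, the very long chain acyl-CoA dehydrogenase, with 6 counts over all kidneys. The last 500 bases of Acadvl overlap Dvl2 on the opposite strand over their whole length. The strand setting of the counting is not given in the sources used here. Acadsb, Eci2 and Acaa1a overlap Fgfr2, Gm16984 and Slc22a14 in the same way and held 5847, 7988 and 11756 counts. Whether the overlap lowered the count of Acadvl was not tested, and its count is not read as a measure of its RNA. The members tested ranged in sham kidneys from a mean of 9.25 CPM for Acaa1b to 2693 CPM for Acsm2. Reads could be split between Acaa1a and Acaa1b, which share 40.2% and 20.7% of the 50-base stretches in their last 300 bases, between Scp2 and its pseudogene Scp2-ps2 (79.3%), and between Etfb and Gm45233 (7.97%). Eci1 and Decr2 share 11.6% and 10.4% of theirs with other genes and Acot2 0.797%, so that these 7 members are uncertain by shared sequence. Scp2 also overlaps Podn, and Etfb Gm45233, on the same strand over all of the last 500 bases. Acaa1b, Hadha and Crat overlap a gene on the opposite strand over 224, 75 and 59 bases. The effect of these overlaps on the counts was not tested. The biological coefficient of variation between kidneys of a group had a median of 9.24% over the members and of 9.89% over all tested genes, and it was highest in Pdk4 (41.7%), Acsl1 (20.5%) and Acot1 (18.5%).

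At 5d post-MI, the members differed little from sham. No member passed the test of edgeR (quasi-likelihood F test, adjusted p under 0.05), which 0.0704% of the 12780 tested genes did, and 2 of 36 members, Eci2 and Cpt1a, had an unadjusted p-value under 0.05, both with a higher level, 5.56% of the members against 7.9% of all genes. Over all genes, 3.92% were higher and 3.97% lower at this threshold, and 0.0548% were called higher and 0.0156% lower. DESeq2 and limma voom also called 0 members, and each gave 2 with an unadjusted p-value under 0.05. Over all genes these were 904 of 14534 in DESeq2 and 1035 of 12780 in limma voom. The median log2 fold change was −0.0086 over the members and 0.0002 over all genes, and 19 of 36 members lay below 0 (49.9% of all genes). Changes lay within 0.2 of 0 on the log2 scale in 35 of 36 members, and the 95% interval lay within 0.5 of 0 in 35 of 36, the exception in both being Pdk4.

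At 28d post-MI, 0 of 36 members were called against sham by edgeR's test, which 0.0235% of all genes passed, but 8 members (22.2%) had an unadjusted p-value under 0.05, against 8.68% of all genes. Acads, Acad10 and Bdh1 were the 3 with a higher level and Acaa2, Hadhb, Hadha, Acsl1 and Pdk4 the 5 with a lower level, against 4.45% of all genes higher and 4.23% lower. With library totals in place of TMM, which moved the median of all genes to −0.041, the split was 3 higher and 9 lower. Over all 12780 genes it was then 294 higher and 929 lower. DESeq2 also called 0 members and gave 9 with an unadjusted p-value under 0.05, against 958 of the 12864 genes it tested. The median log2 fold change was −0.017 over the members and −0.0012 over all genes, with 20 of 36 members below 0 (50.4% of all genes). The 95% interval lay within 0.5 of 0 in 34 of 36 members, the exceptions being Acsl1 and Pdk4.

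Between the times, 1 member, Acads, was called higher at 28d than at 5d post-MI, where 0.415% of all genes were called, 0.336% higher and 0.0782% lower. Unadjusted p-values under 0.05 were found in 6 members (16.7%), 2 higher and 4 lower at 28d, and in 9.05% of all genes, 5.03% higher and 4.01% lower. The log2 fold change was below 0 in 24 of 36 members and in 51.4% of all genes. With library totals the split was 2 higher and 7 lower, against 457 higher and 789 lower of all 12780 genes. The 5d and 28d comparisons share the sham kidneys and are not independent of each other. In none of the 3 comparisons did the groups of any tested member fail to overlap, which they did in 0.0548% of all genes at 5d against sham, 0.258% at 28d against sham and 0.344% between the times.

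**Figure D1:**
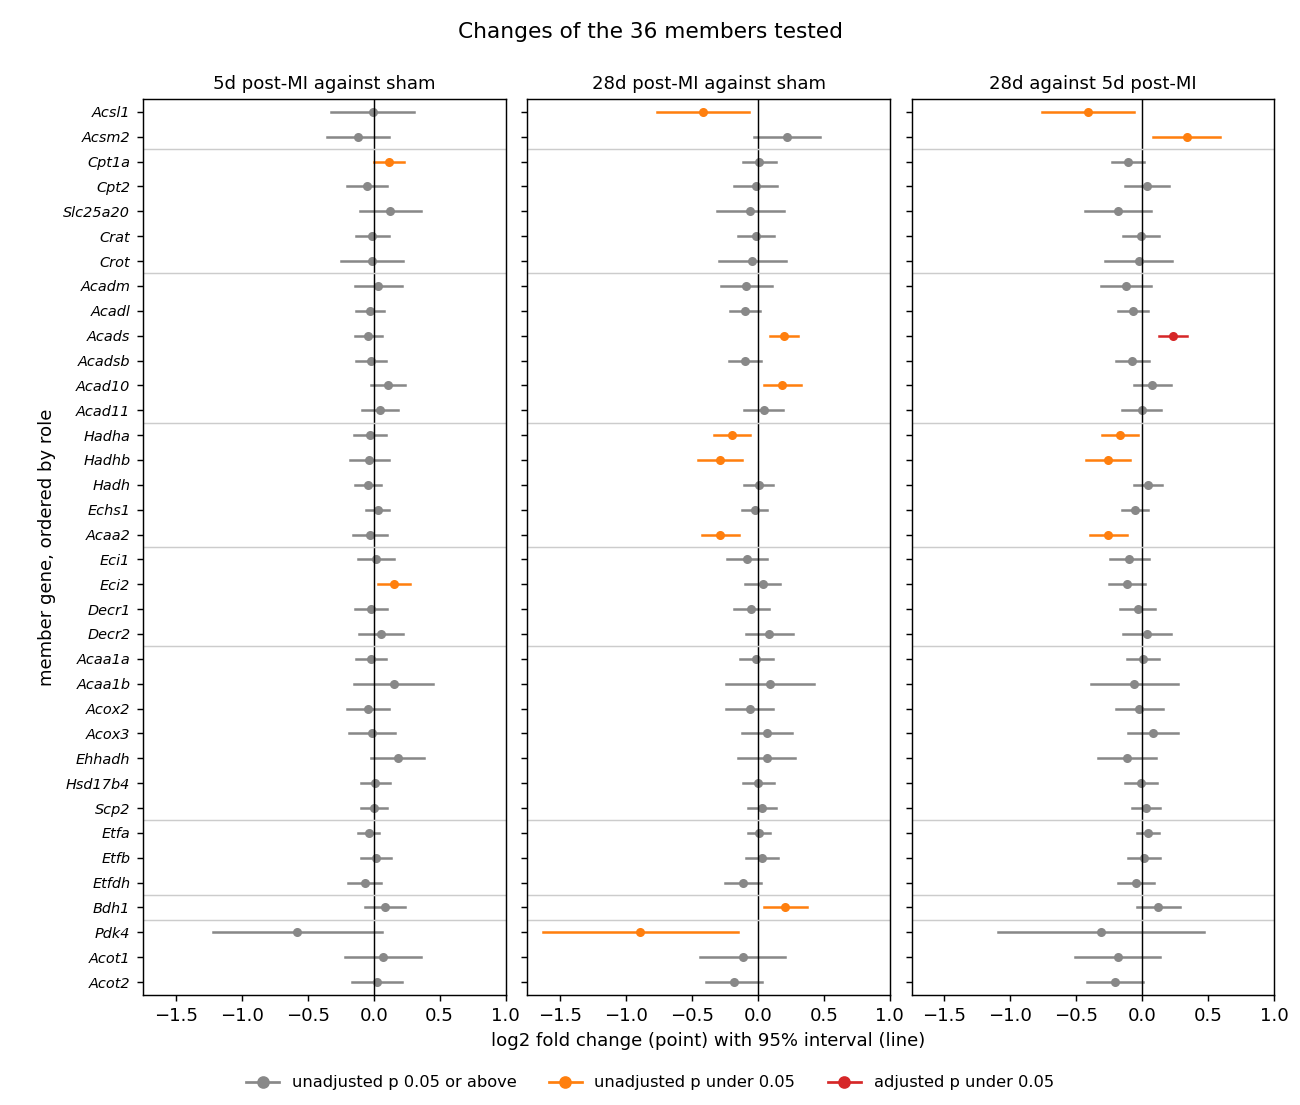
The log2 fold change of each of the 36 members tested (point) with its 95% interval (line) in each of the 3 comparisons, with genes in rows ordered by role. Orange marks an unadjusted p-value under 0.05 and red an adjusted p-value under 0.05, which Acads alone reached, at 28d against 5d post-MI. Most points lie close to 0, and the widest intervals are those of Pdk4.

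Kidneys of 1 group differed from each other over the members as a whole. The median over the 36 members of the log2 ratio to the sham mean ranged from −0.083 to 0.086 among sham, from −0.169 to 0.085 among 5d and from −0.125 to 0.099 among 28d kidneys. At 5d post-MI, replicate 2 was the lowest of its group in 21 of 36 members and lay below the sham mean in 30, and it also had the lowest level of all kidneys of Kap, the kidney androgen-regulated protein of the proximal tubule, at 28486 CPM. The other proximal tubule markers summed to 9968 CPM in that kidney, with 5d replicate 7 lower, at 9854 CPM. At 28d post-MI, replicate 3 was the highest in 17 members and replicate 6 the lowest in 15. Among sham kidneys, replicate 8 was the lowest in 12 members.

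**Figure D2:**
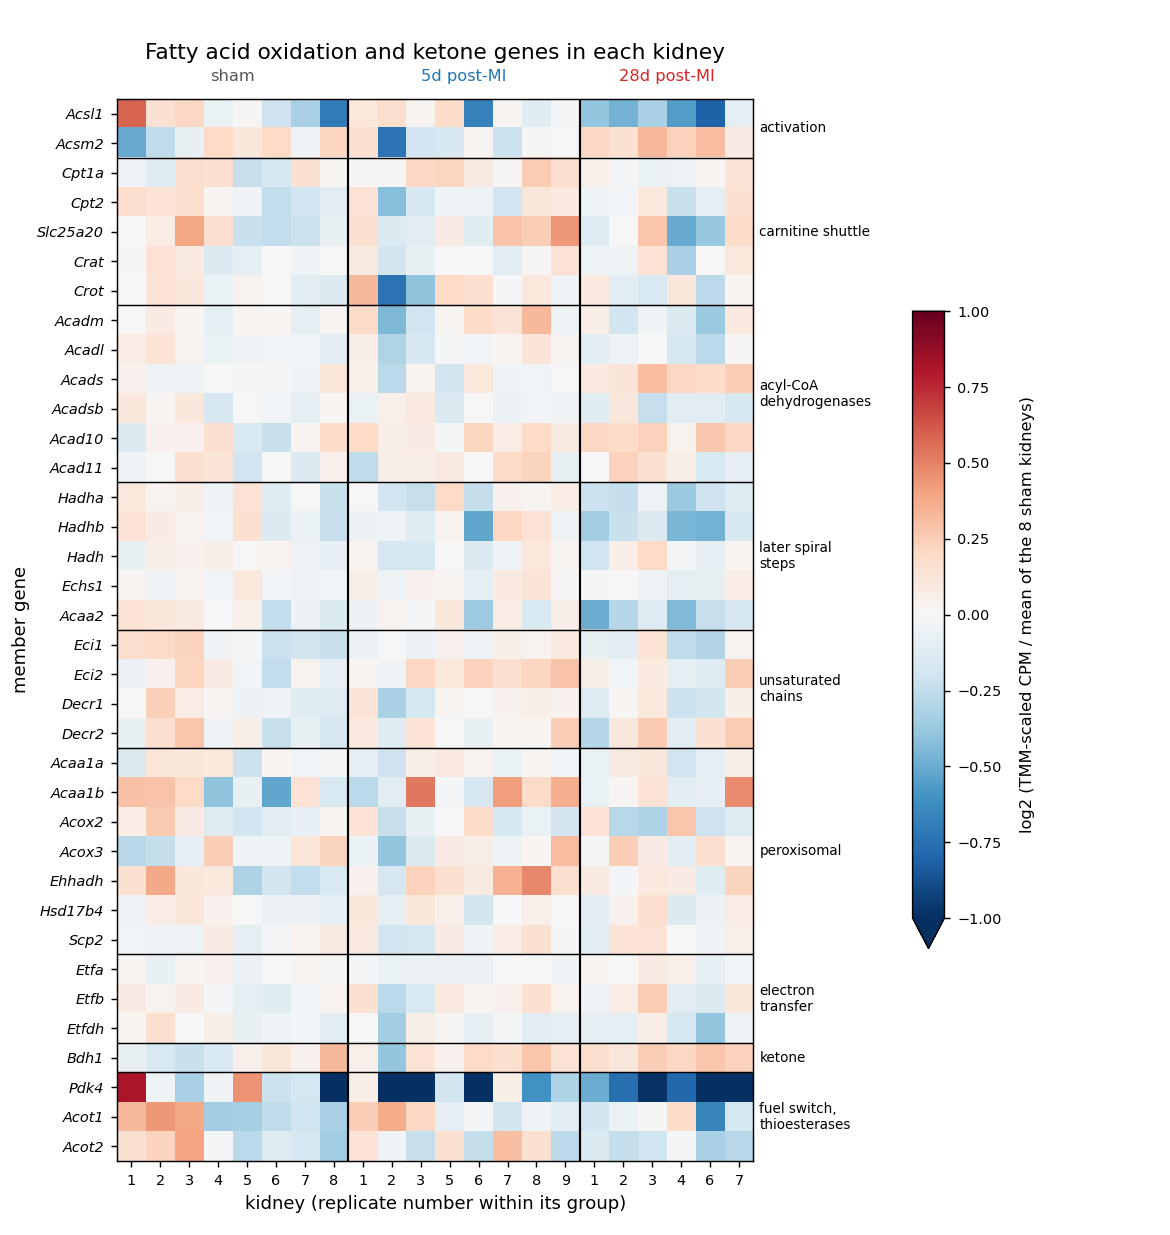
The level of each of the 36 members tested (rows, grouped by role) in each of the 22 kidneys (columns) as the log2 ratio of its TMM-scaled CPM to the mean of the 8 sham kidneys, red above and blue below, with values under −1 in the darkest blue. Rows of Acads, Acad10, Acsm2 and Bdh1 are above the sham mean in all 6 kidneys at 28d post-MI. Rows of Acaa2, Hadha, Hadhb, Acsl1, Pdk4 and Acot2 are below it in all 6. The column of 5d replicate 2 is below it in 30 of 36 rows.

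The 2 activation genes had log2 fold changes of opposite sign at 28d post-MI. Acsl1 (ENSMUSG00000018796, chromosome 8, 46471037 to 46536051), the long chain acyl-CoA synthetase common in fat and heart, ranged from 90.9 to 221 CPM in sham kidneys with a median of 145 CPM. It ranged from 92.7 to 168 CPM at 5d (median 151 CPM) and from 84.6 to 138 CPM at 28d (median 109.9 CPM). The groups overlapped, although all 6 of the latter lay below the sham mean of 148 ± 39.1 CPM (SD, n = 8). Its log2 fold change against sham was −0.01 (SE 0.15, adjusted p = 0.997 from edgeR) at 5d and −0.42 (SE 0.17, adjusted p = 0.483) at 28d. Acsm2 (chromosome 7, 119554340 to 119600690), a medium chain acyl-CoA synthetase of the proximal tubule, was the most abundant member.
Its level was 1903 to 3127 CPM in sham kidneys (median 2769 CPM), 1616 to 3021 CPM at 5d (median 2557 CPM) and 2852 to 3384 CPM at 28d (median 3136 CPM). All 6 kidneys at 28d lay above the mean of the 5d kidneys, and 4 lay above every 5d kidney. The log2 fold change of Acsm2 at 28d was 0.34 (SE 0.12, adjusted p = 0.354 from edgeR) against 5d and 0.22 (SE 0.12, adjusted p = 0.642) against sham.

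Log2 fold changes of the 5 carnitine shuttle members were small in both comparisons with sham. Cpt1a (chromosome 19, 3322334 to 3385733), the outer membrane enzyme that controls entry of long chains into mitochondria, ranged from 204 to 270 CPM in sham kidneys (median 237 CPM). It ranged from 236 to 285 CPM at 5d post-MI (median 262 CPM) and from 228 to 261 CPM at 28d post-MI (median 240 CPM). At 5d, 7 of 8 kidneys lay above the sham mean and 3 lay above every sham kidney, with a log2 fold change of 0.12 (SE 0.06, adjusted p = 0.611 from edgeR). At 28d the log2 fold change of Cpt1a against sham was 0.01, with a 95% interval from −0.11 to 0.14. The other 4 shuttle members, Cpt2, which remakes acyl-CoA inside the mitochondrion, the translocase Slc25a20, and the carnitine acyltransferases Crat and Crot, had log2 fold changes between −0.05 and 0.13 at 5d and between −0.06 and −0.02 at 28d. Crot, the peroxisomal enzyme of this group, was at 245 CPM in 5d replicate 2 and between 309 and 511 CPM in the other 5d kidneys.

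The acyl-CoA dehydrogenases catalyse the first step of the spiral and differ in the chain length they take. Acads, the short chain enzyme, was at 198 to 224 CPM in sham kidneys (median 204 CPM), 171 to 222 CPM at 5d (median 204 CPM) and 220.1 to 255 CPM at 28d (median 236 CPM). Of the 6 kidneys at 28d, 5 lay above every sham kidney and 5 above every 5d kidney. Acads was 200.8 ± 16.7 CPM (SD, n = 8) at 5d and 236 ± 12.6 CPM (SD, n = 6) at 28d, a log2 fold change of 0.24 (SE 0.05, adjusted p = 0.0249 from edgeR). Against sham, with 206 ± 8.58 CPM (SD, n = 8), its log2 fold change was 0.20 (SE 0.05, adjusted p = 0.208) at 28d and −0.04 (SE 0.05, adjusted p = 0.906) at 5d.
The call between the times rested on several kidneys. The adjusted p-value of Acads from edgeR was 0.0594 without 5d replicate 2, 0.0745 without 5d replicate 5, 0.0963 without 28d replicate 3, 0.0589 without 28d replicate 4 and 0.0786 without 28d replicate 7, and under 0.05 in the other 17 of 22 such fits. In these fits the fold change of Acads stayed between 0.20 and 0.26 on the log2 scale. Without the 3 kidneys that held adrenal cortex RNA, an alternative chosen after seeing the data, it was 0.22 with an adjusted p-value of 0.0957.
Acad10 (chromosome 5, 121621026 to 121660514), a less studied dehydrogenase of this family, was at 50.4 to 66.6 CPM in sham kidneys (median 60.0 CPM), 58.2 to 68.0 CPM at 5d (median 62.3 CPM) and 60.2 to 70.7 CPM at 28d (median 67.7 CPM). At 28d, 5 of 6 kidneys lay above every sham kidney, with a log2 fold change of 0.19 (SE 0.07, adjusted p = 0.401 from edgeR). Acadm (chromosome 3, 153922357 to 153944632), the medium chain enzyme, ranged from 610 to 693 CPM in sham kidneys (median 661 CPM), from 477 to 817 CPM at 5d (median 689 CPM) and from 504 to 699 CPM at 28d (median 613 CPM). The spread of Acadm was widest at 5d, and its log2 fold change against sham was 0.04 (SE 0.09, adjusted p = 0.957 from edgeR) at 5d and −0.09 (SE 0.09, adjusted p = 0.864) at 28d. Acadl, the long chain enzyme, had a log2 fold change of −0.10 at 28d against sham, as had Acadsb, which takes short branched chains, and Acad11 of 0.04, with adjusted p-values from edgeR of 0.661, 0.698 and 0.925.

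Of the 5 members that act after the first step, 3 were among those with lower values at 28d post-MI. Acaa2 (ENSMUSG00000036880), a mitochondrial thiolase of the last step of the spiral, was at 187 to 244 CPM in sham kidneys (median 225 CPM), 172 to 239 CPM at 5d (median 222 CPM) and 157 to 202 CPM at 28d (median 185 CPM). All 6 kidneys at 28d lay below the sham mean and 3 below every sham kidney, and the log2 fold change was −0.29 (SE 0.07, adjusted p = 0.119 from edgeR), the lowest p-value of any member against sham. At 28d against 5d it was −0.26 (SE 0.07, adjusted p = 0.0844).
Hadhb, the beta subunit of the mitochondrial trifunctional protein, which carries its thiolase, was at 70.7 to 92.8 CPM in sham kidneys (median 83.4 CPM), 58.0 to 95.7 CPM at 5d (median 80.4 CPM) and 60.0 to 75.2 CPM at 28d (median 68.2 CPM). Its log2 fold change at 28d was −0.29 (SE 0.08, adjusted p = 0.231 from edgeR) against sham and −0.26 (SE 0.08, adjusted p = 0.213) against 5d. The lowest 5d kidney, replicate 6, lay below all 6 kidneys at 28d.
Hadha, the alpha subunit with hydratase and dehydrogenase activity, was at 154 to 198 CPM in sham kidneys (median 181 CPM), 152 to 206 CPM at 5d (median 181 CPM) and 138 to 173 CPM at 28d (median 155 CPM). Its log2 fold change at 28d was −0.20 (SE 0.07, adjusted p = 0.335 from edgeR) against sham and −0.17 (SE 0.07, adjusted p = 0.395) against 5d. For Hadha, Hadhb and Acaa2 alike, all 6 kidneys at 28d lay below the sham mean, while at 5d the log2 fold changes were −0.03 in each.
The other members of this step did not move with them. Hadh, the short chain 3-hydroxyacyl-CoA dehydrogenase, and Echs1, the short chain enoyl-CoA hydratase, had log2 fold changes of 0.00 and −0.02 at 28d against sham, with 95% intervals from −0.10 to 0.11 and from −0.12 to 0.07.
How the calls of these genes depended on the fit is a limit. Without a filter on low counts, Acaa2 (adjusted p = 0.0038 from edgeR) and Hadhb (adjusted p = 0.0364) were called lower at 28d against sham, and with the sham and 28d kidneys fitted alone Acaa2 was called (adjusted p = 0.0405).

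**Figure D3:**
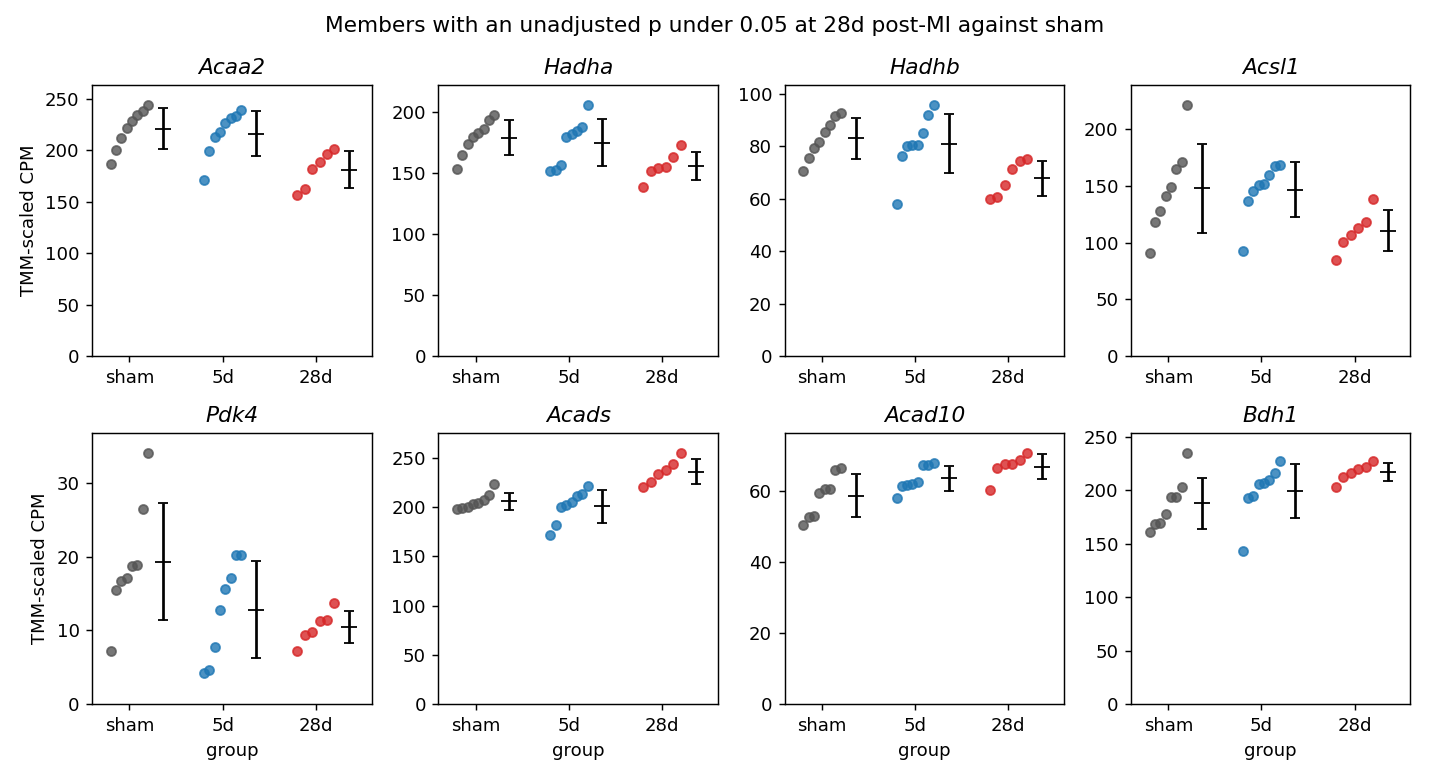
TMM-scaled CPM of the 8 members with an unadjusted p-value under 0.05 at 28d post-MI against sham, 1 point for each kidney, sorted within its group, with the mean and SD of the group as a bar beside the points. The groups overlap in every panel, and in Acads 5 of 6 kidneys at 28d lie above all sham kidneys.

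The auxiliary enzymes prepare unsaturated chains for the spiral. Eci2 (chromosome 13, 34977748 to 35027096), an enoyl-CoA isomerase, was at 99.3 to 137 CPM in sham kidneys (median 118 CPM), 115 to 144 CPM at 5d (median 134 CPM) and 108 to 140 CPM at 28d (median 120 CPM). At 5d, 7 of 8 kidneys lay above the sham mean and 3 above every sham kidney, with a log2 fold change of 0.15 (SE 0.06, adjusted p = 0.514 from edgeR). Its last 500 bases overlap Gm16984 on the opposite strand. Decr1 (chromosome 4, 15917240 to 15945507), the mitochondrial dienoyl-CoA reductase, was at 272 to 351 CPM in sham kidneys (median 293 CPM), 238 to 325 CPM at 5d (median 306 CPM) and 258 to 322 CPM at 28d (median 287 CPM). Decr1 had log2 fold changes against sham of −0.02 (SE 0.06, adjusted p = 0.971 from edgeR) at 5d and −0.05 (SE 0.07, adjusted p = 0.895) at 28d. Eci1, the mitochondrial isomerase, and Decr2, the peroxisomal reductase, had log2 fold changes of −0.08 and 0.09 at 28d, with no unadjusted p-value under 0.05.

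None of the 7 peroxisomal members had an unadjusted p-value under 0.05 in any comparison. Their log2 fold changes against sham were between −0.04 and 0.18 at 5d and between −0.06 and 0.09 at 28d. Ehhadh (chromosome 16, 21761287 to 21787807), the L-bifunctional enzyme and a known target of PPAR alpha, was at 269 to 433 CPM in sham kidneys (median 329 CPM), 296 to 464 CPM at 5d (median 373 CPM) and 307 to 389 CPM at 28d (median 353 CPM). At 5d, 7 of 8 kidneys lay above the sham mean, with a log2 fold change of 0.18 (SE 0.10, adjusted p = 0.673 from edgeR), and at 28d it was 0.07 (SE 0.10, adjusted p = 0.916). Hsd17b4, the D-bifunctional enzyme, had log2 fold changes of 0.01 and 0.00 at 5d and 28d, and Scp2, which carries a peroxisomal thiolase and a lipid carrier, of 0.00 and 0.03. The oxidases Acox2 and Acox3, which start the peroxisomal cycle, were at −0.06 and 0.07 at 28d, and the thiolases Acaa1a and Acaa1b at −0.01 and 0.09.

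The 3 electron transfer members differed little between groups. Etfa and Etfb encode the subunits of the flavoprotein, and Etfdh (chromosome 3, 79603788 to 79629500) encodes the oxidoreductase that passes its electrons to ubiquinone. Etfa had the lowest coefficient of variation of the members, 6.66%, and a log2 fold change of 0.01 at 28d with a 95% interval from −0.08 to 0.09. Etfdh was at 82.1 to 99.6 CPM in sham kidneys (median 87.9 CPM), 69.8 to 92.5 CPM at 5d (median 85.8 CPM) and 67.5 to 93.1 CPM at 28d (median 83.0 CPM), with log2 fold changes of −0.07 (SE 0.06, adjusted p = 0.855 from edgeR) at 5d and −0.12 (SE 0.07, adjusted p = 0.661) at 28d.

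Bdh1 (chromosome 16, 31422280 to 31458901), the mitochondrial enzyme that interconverts the main ketone bodies, was the ketone member. It was at 160 to 235 CPM in sham kidneys (median 186 CPM), 144 to 227 CPM at 5d (median 206 CPM) and 203 to 227 CPM at 28d (median 218 CPM). All 6 kidneys at 28d lay above the sham mean, but none above the highest sham kidney, replicate 8. Its log2 fold change was 0.21 (SE 0.08, adjusted p = 0.444 from edgeR) at 28d and 0.08 (SE 0.07, adjusted p = 0.845) at 5d.

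Pdk4 (chromosome 6, 5483351 to 5496309), a kinase that shuts off pyruvate dehydrogenase when fat is burnt, had the widest range. It was at 7.21 to 34.0 CPM in sham kidneys (median 17.9 CPM), 4.20 to 20.2 CPM at 5d (median 14.1 CPM) and 7.15 to 13.7 CPM at 28d (median 10.49 CPM). The 28d kidneys lay within the range of the sham kidneys except for replicate 6, which lay just below it. The log2 fold change against sham was −0.58 (SE 0.31, adjusted p = 0.673 from edgeR) at 5d and −0.89 (SE 0.35, adjusted p = 0.480) at 28d. The thioesterases Acot1 and Acot2, which release free fatty acids from acyl-CoA in the cytosol and the mitochondrion, had log2 fold changes at 28d of −0.12 and −0.18, and neither had an unadjusted p-value under 0.05.

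Markers of brown adipocytes moved with several of these members. Of 12 listed brown adipocyte genes, 11 were found and 8 tested. Of these 8, 7 had an unadjusted p-value under 0.05 with a lower level at 28d against sham (4.23% of all genes). None of them was called, and the median log2 fold change was −1.90 over the 8. The summed level of the 11 genes found was 122 to 528 CPM in sham kidneys, 111 to 414 CPM at 5d and 120 to 207 CPM at 28d. Ucp1, the uncoupling protein of brown fat, ranged from 1.94 to 153 CPM in sham kidneys and from 0.402 to 22.4 CPM at 28d. In 5d replicate 6, Ucp1 was at 0.433 CPM and Cidea, another listed gene, at 0 CPM, while the sum was 111 CPM. Other listed genes made up nearly all of that sum, so low sums are not read as an amount of brown fat. Cpt1b had 0 counts in all kidneys, and its last 500 bases overlap Gm44502 on the same strand over their whole length. Scp2 and Etfb have same-strand overlaps of that length and held 33372 and 41360 counts. Whether the overlap lowered the count of Cpt1b was not tested, and this 0 is not read as a measure of its RNA. Of 12 genes shared by white and brown adipocytes, 10 were tested. Of these 10, 7 had an unadjusted p-value under 0.05 with a lower level at 28d against sham (4.23% of all genes). The median log2 fold change was −0.94 over the 10. The summed level of all 12 was 1414 to 3491 CPM in sham kidneys, 990 to 3253 CPM at 5d and 1559 to 2400 CPM at 28d.
Some kidneys were at the ends of both scales and others were not. Sham replicate 1 had the highest summed brown adipocyte level and the highest Pdk4, Acsl1 and Acaa2 of the sham kidneys, and sham replicate 8 had the lowest summed level and the lowest Pdk4, Acsl1, Hadha and Hadhb. At 5d, replicate 6 had the lowest summed level and the lowest Acsl1, Acaa2, Hadha and Hadhb. In contrast, 5d replicate 2 had a summed level of 134 CPM with Acsl1 at 167 CPM and Acaa2 at 227 CPM, and 5d replicate 3 one of 155 CPM with Acsl1 at 151 CPM. Pdk4 went with the low sums in these kidneys, at 4.57 CPM in 5d replicate 2 and 4.20 CPM in 5d replicate 3, the lowest of all kidneys. Their sums of the shared adipocyte genes, 990 CPM and 1129 CPM, were also the lowest. At 28d, replicate 1 had the lowest summed brown adipocyte level, 120.3 CPM, and the highest Pdk4, 13.7 CPM.

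**Figure D4:**
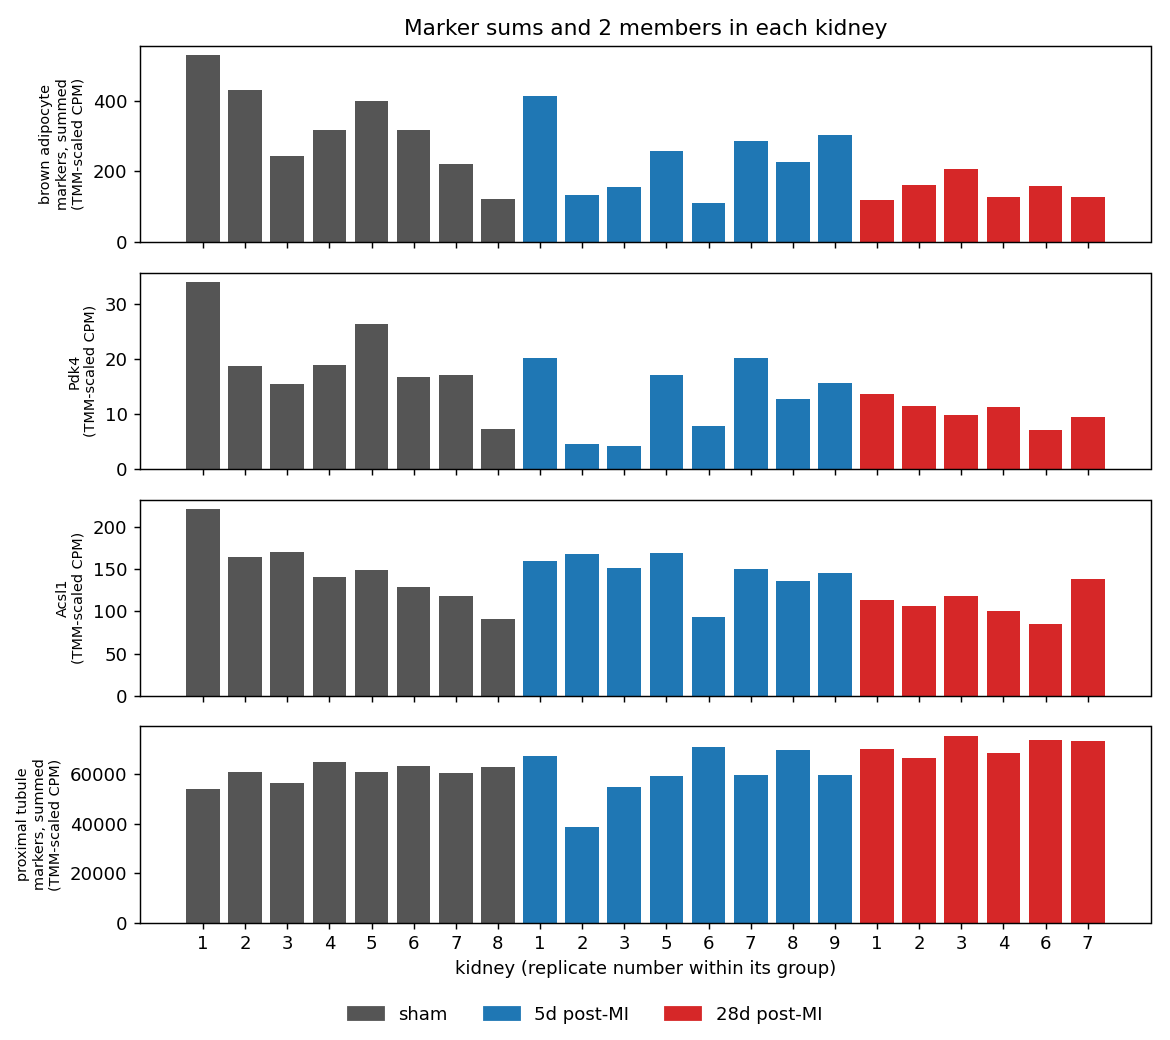
Summed TMM-scaled CPM of the brown adipocyte markers, the levels of Pdk4 and Acsl1, and the summed level of the proximal tubule markers in each of the 22 kidneys (bars, by group and replicate number). Brown adipocyte sums reach 528 CPM among sham kidneys and at most 207 CPM at 28d post-MI. In 5d replicate 6 the sum was 111 CPM with Ucp1 at 0.433 CPM. The proximal tubule sum, of which Kap alone makes up 74.1% to 83.9%, is lowest in 5d replicate 2, at 38454 CPM.

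With the mean log2 CPM of the brown adipocyte genes as a covariate, the members with lower values at 28d came closer to 0. The log2 fold change against sham was then −0.14 (SE 0.07) for Acaa2, −0.09 (SE 0.08) for Hadhb, −0.04 (SE 0.07) for Hadha, −0.09 (SE 0.17) for Acsl1 and 0.05 (SE 0.27) for Pdk4, and 0 members were lower with an unadjusted p-value under 0.05. Acads, Acad10 and Bdh1 stood at 0.18 (SE 0.06), 0.14 (SE 0.08) and 0.15 (SE 0.09), and 1 member, Acads, still had an unadjusted p-value under 0.05. Small p-values also became fewer over all genes. Of 12780 genes, 292 were lower and 389 higher at this threshold, against 540 and 569 without a covariate. The log2 fold change was below 0 in 13 of 36 members with this score and in 49.7% of all genes. With the shared adipocyte genes as the covariate, Acaa2 was at −0.20 (SE 0.07), Hadhb at −0.14 (SE 0.07), Hadha at −0.07 (SE 0.06), Acsl1 at −0.19 (SE 0.15) and Pdk4 at −0.20 (SE 0.21). In that fit 1 member, Acaa2, was lower and 2, Acads and Bdh1, were higher with an unadjusted p-value under 0.05. Over all 12780 genes, 410 were lower and 478 higher in the same fit, and 14 of 36 members lay below 0 (50.4% of all genes). The part of fat cells in these differences was not tested beyond these fits.

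Of the proximal tubule markers, Kap alone made up 74.1% to 83.9% of the summed level in each kidney. Kap was at 42725 to 51699 CPM in sham and 53724 to 61786 CPM in 28d kidneys, without overlap (log2 fold change 0.28, adjusted p = 0.479 from edgeR). The other markers summed to 11051 to 13065 CPM in sham, 9854 to 12418 CPM in 5d and 11555 to 13671 CPM in 28d kidneys, with overlap. Of 15 listed genes, 14 were tested. At 28d against sham, 4 had an unadjusted p-value under 0.05 with a higher level (4.45% of all genes) and 1 with a lower level (4.23%), none of them called. Those with a higher level were Kap, Lrp2, Slc7a13 and Aqp1, and the lower one was Slc5a12, while Slc34a1 and Miox were at 0.01 (log2 fold change). With the mean log2 CPM of the markers as a covariate, in which Kap weighs as much as each other gene, Acads at 28d against 5d was at 0.20 (SE 0.06, adjusted p = 0.235 from edgeR), and Acads, Acad10 and Bdh1 at 28d against sham were at 0.17 (SE 0.05), 0.14 (SE 0.07) and 0.16 (SE 0.08). Acaa2, Hadhb and Hadha stayed at −0.28 (SE 0.08), −0.28 (SE 0.09) and −0.22 (SE 0.07) in that fit. There, 6 members were lower and 1 higher with an unadjusted p-value under 0.05 at 28d against sham. Over all 12780 genes, 429 were lower and 475 higher. The log2 fold change was below 0 in 27 of 36 members (median −0.045) and in 49.8% of all genes (median 0.0007). At 28d against 5d it was below 0 in 28 of 36 members (median −0.075) and in 49.6% of all genes (median 0.0014).

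**Figure D5:**
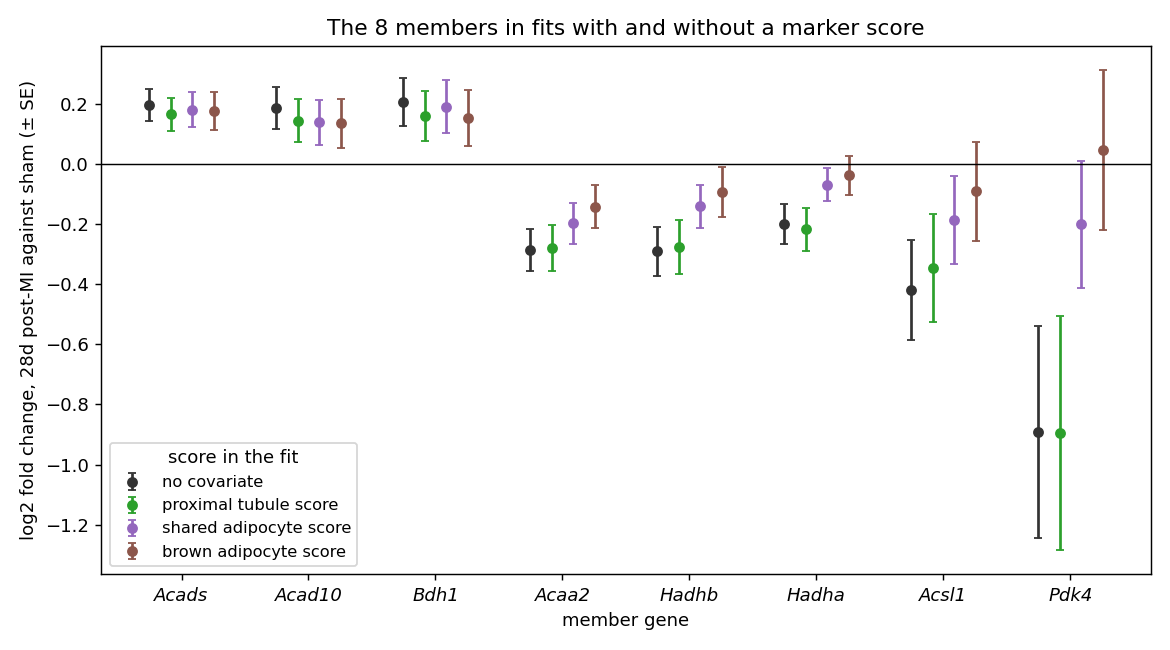
Log2 fold change at 28d post-MI against sham (points, with bars of 1 SE) of the 8 members with an unadjusted p-value under 0.05, in edgeR fits with no covariate, and with the mean log2 CPM of proximal tubule, shared adipocyte or brown adipocyte markers as a covariate. The members below 0 move toward 0 with the adipocyte scores, and Pdk4 goes from −0.89 to 0.05 with the brown adipocyte score.

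Other genes of the pathway gave a mixed picture. Of 57 further genes of fatty acid and ketone metabolism, 56 were found and 51 tested, and 0 were called in any comparison by edgeR. At 28d against 5d, 9 had an unadjusted p-value under 0.05 with a higher level (5.03% of all genes) and 6 with a lower level (4.01%). At 28d against sham, 8 had such a p-value with a higher level (4.45% of all genes) and 6 with a lower level (4.23%). The median log2 fold change against sham was 0.02 over the 51. The 5 higher genes with the lowest p-values included Bdh2, a cytosolic dehydrogenase related to Bdh1, with a mean of 231 ± 17.9 CPM (SD, n = 8) for sham and 271 ± 22.5 CPM (SD, n = 6) for 28d kidneys, a log2 fold change of 0.22 (SE 0.06, adjusted p = 0.149 from edgeR). Acot12, an acetyl-CoA thioesterase, had a mean of 97.8 ± 10.8 CPM (SD, n = 8) for sham and 115 ± 2.52 CPM (SD, n = 6) for 28d kidneys. The carnitine transporter Slc22a5 had a log2 fold change of 0.22, the leucine pathway enzyme Ivd of 0.15, and Acat1, the thiolase that handles acetoacetyl-CoA, of 0.18.
The 5 lower genes with the lowest p-values were Nudt7 (log2 fold change −0.29), a peroxisomal CoA hydrolase, Acacb (−0.81), which makes the malonyl-CoA that restrains Cpt1a, Acsl5 (−0.25), the fatty acid transporter Slc27a1 (−0.38) and the pyruvate dehydrogenase kinase Pdk1 (−0.25). Acacb was at 21.1 to 65.4 CPM in sham kidneys and at 17.6 to 39.4 CPM at 28d. At 5d against sham, 3 of the 51 genes had an unadjusted p-value under 0.05 with a higher level, among them Slc22a5 and Hacl1, and 2 with a lower level, Phyh, which starts alpha-oxidation of branched chains, and Acsl5. Over all genes, 3.92% were higher and 3.97% lower at this threshold.

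Of 22 other genes listed as targets of PPAR alpha, some of which are also in the list above or in the adipocyte lists, 17 were tested, and 0 were called. Whether each responds to PPAR alpha in these kidneys was not tested. At 28d against 5d, 2 had an unadjusted p-value under 0.05 with a higher level (5.03% of all genes) and 4 with a lower level (4.01%). At 28d against sham, 1 had such a p-value with a higher level, Cyp4a12a (4.45% of all genes). There, 3 had one with a lower level, Cyp4a14, Plin5 and Mgll (4.23%), with a median log2 fold change of −0.07 over the 17. Cyp4a14, a fatty acid omega-hydroxylase, was at 19.3 to 204 CPM in sham kidneys, 68.8 to 363 CPM at 5d and 12.3 to 33.2 CPM at 28d, with a log2 fold change of −1.88 (SE 0.61, adjusted p = 0.361 from edgeR) at 28d against sham. Cyp4a12a was at 6.07 to 22.5 CPM in sham kidneys and 10.03 to 39.3 CPM at 28d. The lipid droplet protein Plin5 and the monoglyceride lipase Mgll, both abundant in fat, had log2 fold changes of −0.65 and −0.51. At 5d against sham, 1 of the 17 had an unadjusted p-value under 0.05 with a higher level and 1 with a lower level, the latter being Plin2, another lipid droplet protein (log2 fold change −0.21). Over all genes, 3.92% were higher and 3.97% lower at this threshold.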

How the data were processed

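RNA of 24 kidneys was sequenced by MACE. The authors trimmed reads with Cutadapt and quantified transcripts by HTSeq. The build is mm10 in the study's methods and mm39 in the submitters' processing notes, which also name Bowtie2, FastQC and DESeq2. The annotation and strand setting are not given in the sources used here. The deposited counts are whole numbers without normalization. The deposited values named TPM are CPM by library total (largest deviation 5.0e-06) and were not used for tests. Of 48 value columns, 4 that share a name were not assigned, which left 22 kidneys.

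Counts were fitted by edgeR 4.0.16 (R 4.3.3), with filterByExpr (minimum 10 counts, 12780 genes), TMM, a robust quasi-likelihood F test, two-sided, of 3 groups in 1 fit, and Benjamini-Hochberg adjustment over all tested genes. The SE was taken as the absolute log2 fold change over the root of its F statistic. Log2 fold changes are those of the first-named group over the second. Alternatives used DESeq2 1.42.0, limma 3.58.1, other scalings, no filter, 2 groups only, a replicate block, marker scores and left-out kidneys. Scripts were tested on simulated data. Symbols and coordinates are from GENCODE M21 (51948 of 56941 identifiers).

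Members given in full had an unadjusted p-value under 0.05 in at least 1 comparison or represent a role (Acsl1, Cpt1a, Acadm, Hadha, Decr1, Ehhadh, Etfdh, Bdh1, Pdk4). From the other pathway lists, up to 5 genes with the lowest such p-value in each direction at 28d, and 3 at 5d, are named. One gene that this rule names is not reported here. Members and lists were chosen with earlier results of these data known. The labels do not say which kidneys shared a litter or day, so p-values measure the spread between these samples.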

Additional observations from a re-analysis of the deposited data

Results flagged for a closer look

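Acads differed between the times, with a change at 28d minus that at 5d of 0.24 on the log2 scale (adjusted p = 0.0249 from edgeR).

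Of 45 groups of kidneys checked, 3 groups in each of 15 members, 3 held a kidney far from the others of its group, and chance gives about 1 in 20 such groups. Bdh1 was at 144 CPM in 5d replicate 2 and at 193 to 227 CPM in the other 5d kidneys. Acsl1 was at 92.7 CPM in 5d replicate 6 and at 136 to 168 CPM in the others. Etfdh was at 69.8 CPM in 5d replicate 2 and at 82.1 to 92.5 CPM in the others.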

How the results depend on the processing

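No member was called at 5d against sham in any of the 13 alternatives or with any kidney left out. At 28d against sham, 0 members were called with any kidney left out, but 2 without a filter on low counts (Acaa2 and Hadhb), 3 by DESeq2 on these groups alone (Acads, Acaa2 and Hadhb) and 1 by edgeR on these groups alone (Acaa2). Calls over all genes rose too, from 3 of 12780 to 94 of 30116 without a filter, 70 of the 3899 with an adjusted p-value in DESeq2 on these groups (34 members among them) and 31 of 12266 in edgeR on these groups. At 28d against 5d, the count of 1 member became 2 without a filter (Acads and Acaa2, with 160 of 30116 genes called against 53 of 12780), and 0 with the brown adipocyte score, the proximal tubule score, edgeR on these groups alone and without the 3 kidneys with adrenal cortex RNA, the last chosen after seeing the data. With a kidney left out it was between 0 and 3, with 3 (Acads, Acaa2 and Hadhb) without 5d replicate 6. Same-numbered kidneys did not deviate together (r from −0.127 to 0.0899 over 18 pairs, 0 above 0.1, and 3 pairs in which a kidney correlated best with its own number). These correlations show no pairing by number but cannot exclude a shared litter or day. With a replicate block 0 members were called at 28d against 5d, while calls over all genes went from 53 to 80. With that block they went from 3 to 24 at 28d against sham and from 9 to 2 at 5d against sham. The cause of these changes was not tested.

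The median log2 fold change of the members moved by more than the spread of sham kidneys in 1 alternative, to 0.063 at 5d against sham with the shared adipocyte score. With a kidney left out it was between −0.016 and 0.021 at 5d, −0.046 and 0.013 at 28d, and −0.071 and −0.0097 between the times. Pdk4 at 28d against sham changed sign with the brown adipocyte score, to 0.046, a value smaller than its SE given above.

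Of the other oxidation and ketone genes, 3 were called by DESeq2 on 2 groups at 28d against sham, and between the times 1 each without a filter, with the replicate block and by DESeq2 on 2 groups. With a kidney left out their count was 0 to 1 in both comparisons (1 without sham replicate 8 at 28d against sham and 1 without 5d replicate 9 between the times), and 0 at 5d. Of the other PPAR alpha targets, 1 was called at 28d against sham by DESeq2 on 2 groups, and between the times 1 each without a filter, by DESeq2, with the replicate block and by edgeR on 2 groups, 3 by DESeq2 on 2 groups, and 0 to 1 with a kidney left out (1 without sham replicate 3 or 5d replicate 1).

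Precision was lowest for Pdk4 and Acsl1, whose 95% intervals at 28d against sham ran from −1.63 to −0.15 and from −0.77 to −0.07 on the log2 scale.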
